A study of Mus musculus with 2 samples.

Results

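The 34 genes described here encode the contractile apparatus of smooth muscle: actins, myosin and its kinase, thin filament proteins, tropomyosins, subunits of myosin phosphatase, cross-linkers and dense plaque proteins, and LIM proteins. They were chosen by gene name among the spots that are not controls, and all 34 were among the 21143 genes tested. RNA came from ureters of NMRI mice at postnatal day 4. One group was Tbx18(cre/+);Rbpj(fx/fx), called Rbpj-cKO, in which cre is expressed from the Tbx18 locus and removes the floxed parts of Rbpj in cells that express or have expressed Tbx18. The control group was Tbx18(+/+);Rbpj(fx/n.d.), so it carried a floxed Rbpj allele, had no cre, and also differed from the Rbpj-cKO at Tbx18. Each of the 2 arrays compared 1 Rbpj-cKO RNA with 1 control RNA in 2 colours. Array 1 held a pair labelled female with the Rbpj-cKO RNA in red, and array 2 a pair labelled male with the dyes exchanged. The number of animals per RNA was not given in the sources used here. Labelled sex, dye orientation and replicate number therefore changed together. The p-values rest on the spread between these 2 pairs, moderated over all genes tested, and on no further replicates.

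Smooth muscle cells of the ureter develop from mesenchyme that expresses Tbx18, and their coordinated contraction moves urine towards the bladder. Calcium and calmodulin activate myosin light chain kinase, which phosphorylates the regulatory light chain so that myosin pulls on actin filaments, and myosin phosphatase reverses this. Actin filaments are held in dense bodies by cross-linkers and at the membrane in dense plaques. Many of these genes are driven by serum response factor with myocardin through CArG boxes. RBPJ is the DNA-binding protein through which cleaved Notch receptors act on their targets, and it binds DNA with the core letters TGGGAA.

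Promoter sequence is shown for members with such motifs, because the members are often treated as a set under shared control. RefSeq promoter windows of build GRCm38.p6 (250 bases before to 50 after each start) were at hand for 30 of the 34 members, Actg2, Tagln, Myh11 and Nexn being the others. A CArG box was taken as CC, then 6 bases of A or T, then GG, with no mismatch allowed. It was found on either strand in 6 of the 30 members (20%), against 488 of 27025 genes with a window (1.81%) and 1.63% of all windows. In the lines that follow, the 10 bases of the CArG box are in capitals. They lie at chr10:79988504-79988593 (Cnn2), chrX:56779541-56779630 (Fhl1), chr1:43196808-43196897 (Fhl2), chr10:128493010-128493099 (Myl6), chr2:156775263-156775352 (Myl9) and chr14:20929148-20929220 (Vcl), all upstream of an annotated start. Fhl2 and Myl6 were read on the minus strand and the others on the plus strand. Another Fhl2 window also held a CArG box, at -31 to -22 from its start (within chr1:43163962-43164032), which is not printed.
Cnn2: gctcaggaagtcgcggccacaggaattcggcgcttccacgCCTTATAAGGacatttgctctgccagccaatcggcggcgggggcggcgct
Fhl1: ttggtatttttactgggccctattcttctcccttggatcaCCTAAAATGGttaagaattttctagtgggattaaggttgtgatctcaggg
Fhl2: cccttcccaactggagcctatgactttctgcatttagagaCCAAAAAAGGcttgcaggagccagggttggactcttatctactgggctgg
Myl6: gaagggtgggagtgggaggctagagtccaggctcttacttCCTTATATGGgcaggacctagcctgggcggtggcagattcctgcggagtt
Myl9: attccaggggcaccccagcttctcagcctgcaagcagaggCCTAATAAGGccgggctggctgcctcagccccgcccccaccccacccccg
Vcl: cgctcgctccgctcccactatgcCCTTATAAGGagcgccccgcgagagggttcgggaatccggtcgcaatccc
The TGGGAA core was found on either strand in 13 of the 30 members (43.3%), against 28.3% of all genes with a window. Some genes have more than 1 window, and by window it was in 13 of the members' 41, against 25.6% of all windows. The longer GTGGGAA, which contains that core, was found in Actn1 and Csrp1 (6.67% of the 30), against 7.25% of all genes. The next lines show the core in capitals for Acta2 at chr19:34255374-34255440 and Tpm1 at chr9:67049214-67049291, and its reverse complement for Smtn at chr11:3539315-3539400, all read on the minus strand. Tpm1 held a further core at -110 to -105 from its start, which is not printed.
Acta2: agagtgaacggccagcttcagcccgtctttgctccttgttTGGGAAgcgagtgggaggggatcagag
Tpm1: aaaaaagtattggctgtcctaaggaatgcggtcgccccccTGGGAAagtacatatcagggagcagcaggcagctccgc
Smtn: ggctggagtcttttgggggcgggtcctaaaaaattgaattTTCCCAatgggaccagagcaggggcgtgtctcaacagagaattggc
A motif match is a description of the letters in the window and not a binding site. The 6 members with a CArG box had a median log2 ratio of Rbpj-cKO over control of -0.07, with 2 lower and 2 higher on both arrays. The 24 members with a window and no exact CArG box had a median of -0.15, with 17 lower and 2 higher on both arrays. For comparison, 29.8% of all genes tested were lower and 31.7% higher on both arrays. Variants with another base among the 6 counted as no box, among them a near match that overlaps the capitals in the Acta2 stretch. The 24 are therefore not members known to lack such sites.

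The comparison asks which transcripts of the ureter differ when Rbpj is deleted in Tbx18-expressing cells and their descendants. Each array measured 39429 probes with 4 spots each. Between 71.8% and 74.0% of gene spots per channel were well above background, no spot was saturated, and the number of arrays limits the precision. Rbpj itself was at a log2 ratio of -0.92 on array 1 and -1.10 on array 2 (-1.01 ± 0.13, SD, n = 2, adjusted p = 0.0873 by limma), and Tbx18 at 0.16 and 0.01. On array 1, where both RNAs are labelled female, the Y-linked genes Ddx3y and Eif2s3y had log2 ratios of 4.23 and 4.26, so the sex label of array 1 is not used as a fact here. Ddx3y was at 11.31 in the Rbpj-cKO and 7.08 in the control RNA. The 2 RNAs of array 1 thus differed in Y-linked transcripts as well as in genotype. Xist, the transcript of the inactive X chromosome, was well above background in both RNAs of array 1 (normalized log2 levels of 12.96 in the Rbpj-cKO and 12.82 in the control RNA by its brighter probe) and in neither RNA of array 2. The 8 hepatocyte markers stood apart in the control RNA of array 2, where their summed intensity was 62794, against 8904 to 12796 in the other 3 RNAs. In this whole tissue RNA, fewer cells of a type and less RNA per cell cannot be told apart.

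Most of the contractile genes were somewhat lower in the Rbpj-cKO ureters, by small amounts. Of the 34 members, 21 (61.8%) were lower than the control on both arrays, against 29.8% of all genes tested, and 5 (14.7%) were higher on both, against 31.7% of all genes. The other 8 had opposite signs on the 2 arrays, against 8139 of the 21143 genes tested. None of the 34 passed an adjusted p of 0.05 (limma, Benjamini-Hochberg over all genes), at which 1 of the 21143 genes (0.00473%) passed, and the smallest adjusted p of a member was 0.158. At an unadjusted p under 0.05, 9 members were called lower (Actg2, Cald1, Fhl1, Lmod1, Mylk, Ppp1r12a, Ppp1r14a, Smtn and Synpo2), against 7.02% of all genes. No member was at least 1.5-fold lower on both arrays, a size reached by 0.795% of all genes. The median log2 ratio of the members was -0.07 on array 1, -0.22 on array 2 and -0.12 for the mean of both, while the medians of all genes were -0.01, 0.01 and -0.0002. The mean ratios ran from -0.55 (Fhl1, 68.4% of the control level) to 0.16 (Tpm4, 111.9%). In 16 members both Rbpj-cKO levels lay below both control levels, against 20.8% of all genes, and in 3 (Fhl2, Nexn and Tpm4) both lay above, against 22.3%.

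**Figure D1:**
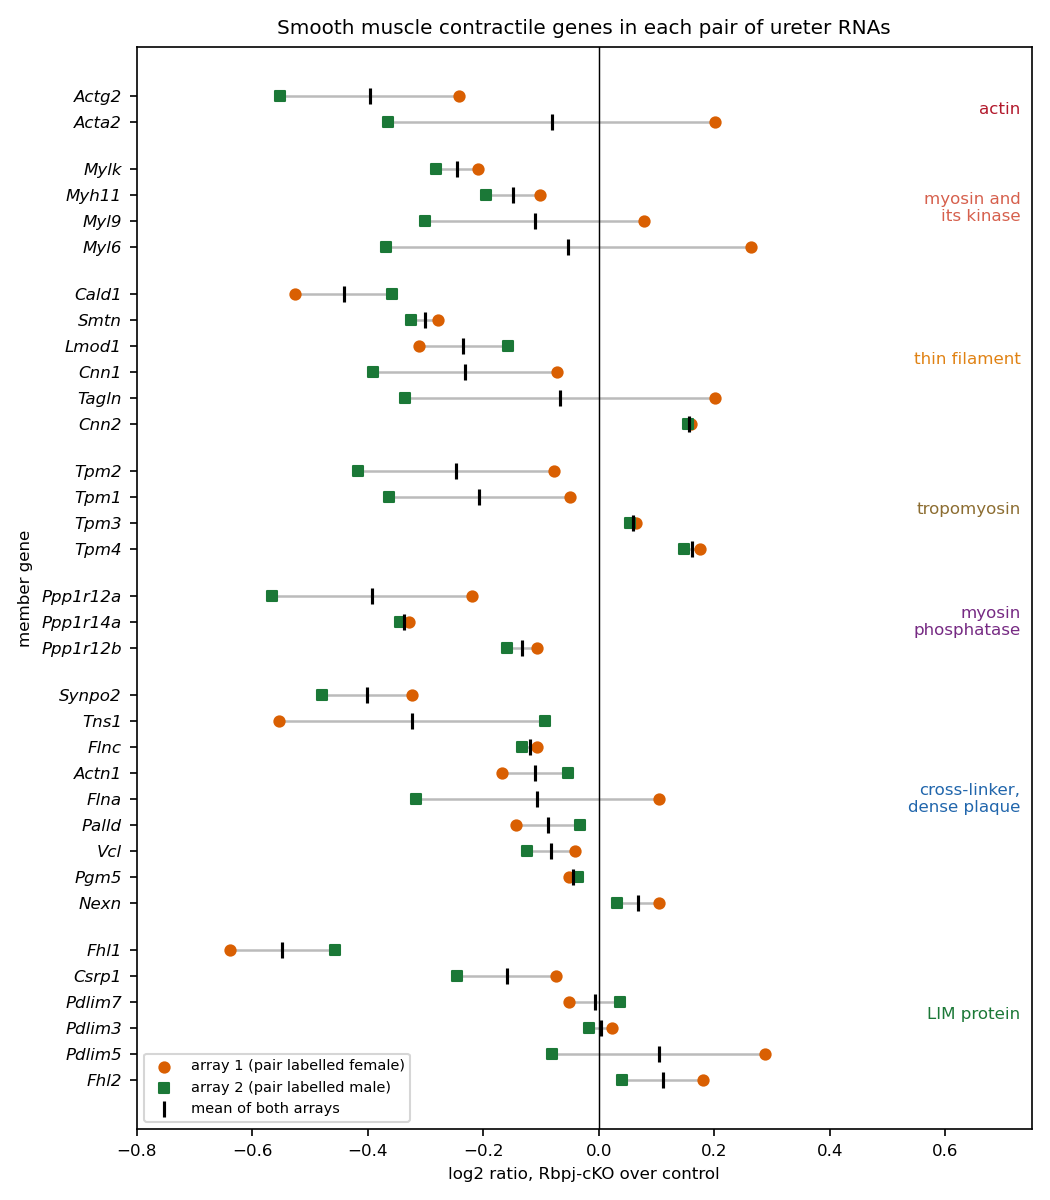
Log2 ratio of Rbpj-cKO over control for each of the 34 members, grouped by role, with array 1 as circles, array 2 as squares and their mean as a bar. Most points lie left of 0, 21 members have both points there, and the mean ratios run from -0.55 for Fhl1 to 0.16 for Tpm4.

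The scatter of one array against the other placed the members mainly below 0 on array 2. Array 1 had 22 members below 0 (64.7%, against 52.1% of all genes) and array 2 had 28 (82.4%, against 45.9%). Across the 34 members the correlation between the arrays was 0.38, a description over genes that share the same 4 RNAs.

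**Figure D2:**
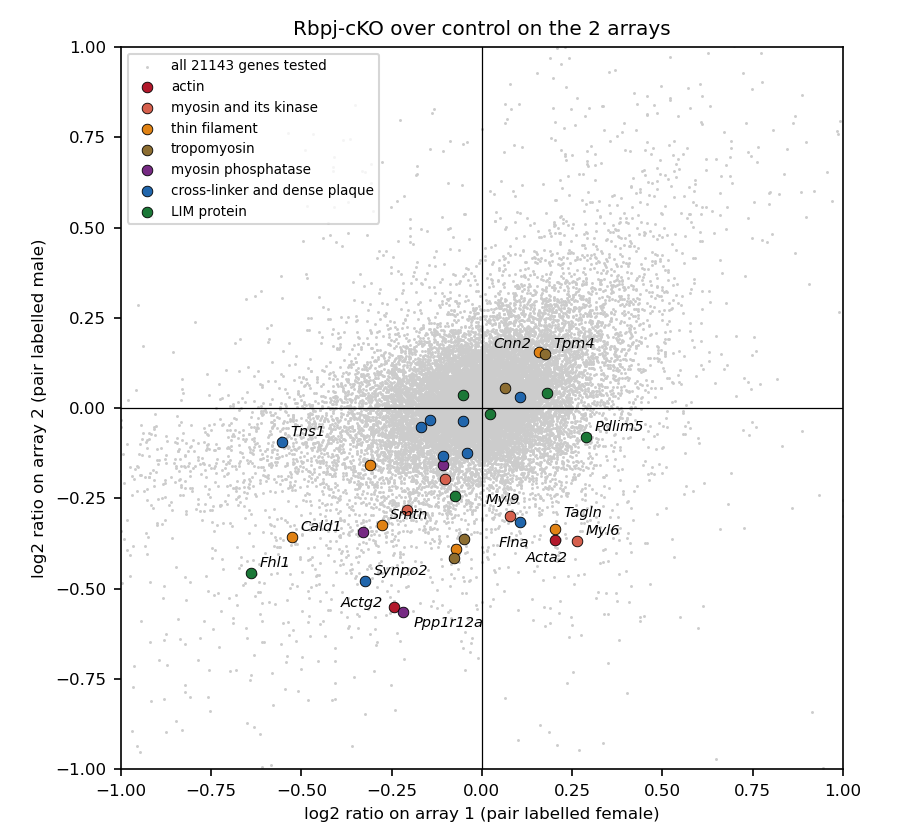
Log2 ratio on array 1 (horizontal) against array 2 (vertical), with all 21143 genes in grey and the 34 members coloured by role (both axes are limited to -1 to 1, so genes beyond these are not drawn). Fhl1, Cald1, Synpo2 and Smtn lie at the lower left, and Acta2, Tagln, Myl6, Myl9, Flna and Pdlim5 at the lower right.

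The 2 smooth muscle actins are the building blocks of the thin filaments. For Actg2, the enteric gamma actin, the normalized log2 levels were 16.75 and 16.57 in the Rbpj-cKO RNAs and 16.99 and 17.12 in the controls, so both Rbpj-cKO levels lay below both controls. Its log2 ratio was -0.40 ± 0.22 (76.0% of control, adjusted p = 0.265, limma). For Acta2, the alpha actin most used as a smooth muscle marker, the levels were 17.48 and 17.15 in the Rbpj-cKO and 17.27 and 17.51 in the control RNAs. These overlap, since the Rbpj-cKO was higher on array 1 (0.20) and lower on array 2 (-0.36), and the mean was -0.08 ± 0.40 (adjusted p = 0.875). The Acta2 probe lies at chr19:34316060-34316119 and the Actg2 probe at chr6:83462904-83462963 (mm9, from the files).

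Among myosin genes, Mylk, the kinase that phosphorylates the regulatory light chain, was at 13.71 and 13.79 in the Rbpj-cKO and 13.92 and 14.08 in the control RNAs. The groups did not overlap, and the ratio was -0.25 ± 0.05 (84.4% of control, adjusted p = 0.299, limma). A dimmer second Mylk probe was at 0.01. Myh11, the smooth muscle myosin heavy chain, was lower on both arrays (-0.10 and -0.20, adjusted p = 0.481). The regulatory light chain Myl9 (0.08 and -0.30) and the essential light chain Myl6 (0.26 and -0.37) had opposite signs on the arrays, with adjusted p of 0.756 and 0.932. All 4 myosin and kinase genes were thus below 0 on array 2, against 45.9% of all genes tested. On array 1, 2 of the 4 were below 0, against 52.1% of all genes.

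Of the 6 thin filament genes, Cald1 had the lowest ratio. Cald1 encodes caldesmon, which binds actin and holds back myosin, and its levels were 12.19 and 12.30 in the Rbpj-cKO and 12.71 and 12.66 in the control RNAs. The groups were well apart, at -0.44 ± 0.12 (73.6% of control, adjusted p = 0.192, limma), and a second Cald1 probe gave -0.37. The probe reported lies at chr6:34723634-34723693 (mm9). Smtn, the gene of the contractile cell marker smoothelin, was at 15.96 and 16.08 in the Rbpj-cKO and 16.24 and 16.40 in the controls. Its ratio was -0.30 ± 0.03 (81.2% of control, adjusted p = 0.247), almost the same on both arrays, while a second, dimmer Smtn probe at another place of the gene was at -0.02. The file assigns these 2 Smtn probes to different transcripts.

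Lmod1, an actin nucleator, was at 9.72 and 10.30 in the Rbpj-cKO and 10.04 and 10.46 in the control RNAs. It was lower within each array (-0.31 and -0.16, adjusted p = 0.335 by limma), although the levels of the groups overlap because both RNAs of array 2 were higher. Cnn1, calponin of differentiated smooth muscle, was at -0.07 and -0.39 (-0.23 ± 0.23, adjusted p = 0.435). Tagln, transgelin or SM22 alpha, was at 0.20 and -0.34 (-0.07 ± 0.38, adjusted p = 0.897), with levels of 17.08 and 16.81 in the Rbpj-cKO and 16.88 and 17.15 in the controls. Cnn2, a calponin found also outside muscle, was higher on both arrays by nearly the same amount (0.16 and 0.15, adjusted p = 0.440).

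**Figure D3:**
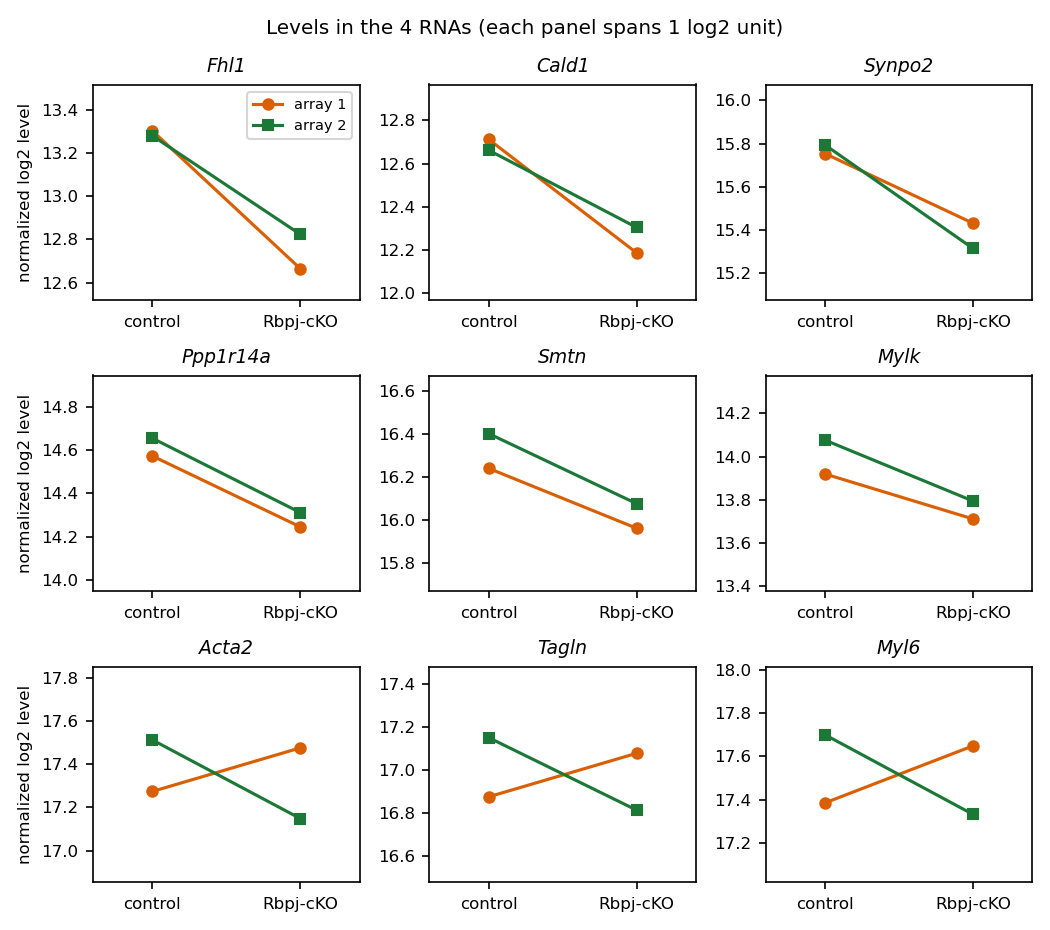
Normalized log2 level of 9 members in the control and the Rbpj-cKO RNA of each array, each panel spanning 1 log2 unit, with lines joining the 2 RNAs of an array. In the upper 6 panels (Fhl1, Cald1, Synpo2, Ppp1r14a, Smtn and Mylk) both lines fall, and in Acta2, Tagln and Myl6 the lines cross.

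The 4 tropomyosins, which lie along actin and govern access of myosin, differed among themselves. Tpm1 (-0.05 and -0.36) and Tpm2 (-0.08 and -0.42), the main muscle forms, were lower on both arrays, with adjusted p of 0.476 and 0.422 (limma). Tpm3 (0.06 and 0.05) and Tpm4 (0.18 and 0.15), which give mainly cytoskeletal forms in cells other than muscle, were higher on both, with adjusted p of 0.795 and 0.427. Tpm4 levels were 16.19 and 16.19 in the Rbpj-cKO and 16.01 and 16.04 in the controls, which do not overlap. A much dimmer second Tpm3 probe was on both sides of 0 (-0.05 and 0.01). The mean of Tpm1 and Tpm2 lay below that of Tpm3 and Tpm4 by -0.18 on array 1 and -0.49 on array 2. Tpm1 makes many isoforms by splicing, and its probes did not move alike: the brightest was at -0.21, while the other 4 were between 0.005 and 0.12.

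Other pairs of members were also set side by side. Cnn1 minus Cnn2 was -0.23 and -0.54 on the 2 arrays, Fhl1 minus Fhl2 was -0.82 and -0.50, and Actg2 minus Acta2 was -0.44 and -0.19. Ppp1r12a minus Ppp1r12b was -0.11 and -0.41. Flnc minus Flna changed sign (-0.21 and 0.18), as did Myh11 minus Myl6 (-0.36 and 0.17). These pairs were picked after the values were seen and were given no test.

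By their brightest probes, all 3 genes around myosin phosphatase were lower on both arrays, against 29.8% of all genes tested. Ppp1r12a, which encodes the subunit MYPT1 that targets the phosphatase to myosin, was at 16.13 and 15.82 in the Rbpj-cKO and 16.35 and 16.39 in the control RNAs, without overlap. Its ratio was -0.39 ± 0.25 (76.2% of control, adjusted p = 0.282, limma), and a second probe gave -0.36. Ppp1r14a, the gene of CPI-17, a phosphatase inhibitor, was at 14.24 and 14.31 in the Rbpj-cKO and 14.57 and 14.66 in the controls. Its ratio hardly differed between arrays (-0.33 and -0.34, 79.2% of control, adjusted p = 0.215). Ppp1r12b, the related targeting subunit MYPT2, was at -0.11 and -0.16 (adjusted p = 0.510). Of its 4 kept probes, with means from -0.25 to -0.004, 3 were lower on both arrays. The dimmest was at 0.15 and -0.15. The members lower here thus include a subunit of the phosphatase and an inhibitor of it.

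Among the 9 cross-linkers and dense plaque genes, 7 were lower on both arrays, against 29.8% of all genes tested. Synpo2, which encodes an actin-bundling protein of dense bodies and Z-discs, was at 15.43 and 15.31 in the Rbpj-cKO and 15.75 and 15.79 in the control RNAs. The groups were apart, at -0.40 ± 0.11 (75.7% of control, adjusted p = 0.206, limma), and all 3 Synpo2 probes were lower on both arrays, with means from -0.47 to -0.26. Tns1, tensin 1, links integrins to actin. Its levels were 14.32 and 14.67 in the Rbpj-cKO and 14.87 and 14.76 in the controls, which do not overlap although the 2 arrays differed in size (-0.55 and -0.09, adjusted p = 0.389). The other Tns1 probes had means of -0.63 and -0.27 and were also lower on both arrays.

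The remaining genes of that role stayed near the control. Vcl, encoding vinculin of the plaque, was at -0.08 on average, Flnc, a muscle filamin, at -0.12, and Actn1, an alpha-actinin, at -0.11. Palld, palladin, was at -0.09 and Pgm5, encoding a plaque protein that binds dystrophin, at -0.04. The filamin gene Flna was at 0.10 and -0.32, so its sign changed between arrays. Nexn, nexilin, was higher on both arrays (0.11 and 0.03). Adjusted p for these 7 genes ran from 0.553 to 0.855 (limma).

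LIM proteins bind actin and its cross-linkers or shuttle to the nucleus. Fhl1, a protein made of LIM domains that is abundant in striated muscle, had the lowest ratio of all 34 members. Its levels were 12.66 and 12.82 in the Rbpj-cKO and 13.30 and 13.28 in the control RNAs, so the groups were far apart relative to the spread within each. The ratio was -0.64 and -0.46 (-0.55 ± 0.13, 68.4% of control, adjusted p = 0.158, limma) from 1 probe at chrX:54045353-54045412 (mm9). Among all genes tested, 2.24% had a lower mean ratio or the same. Fhl2, its relative, was slightly higher on both arrays (0.18 and 0.04, adjusted p = 0.622).

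Csrp1, a LIM protein of smooth muscle, was at -0.07 and -0.24 (adjusted p = 0.490, limma). The Pdlim genes encode adaptors with a PDZ and LIM domains, and by its brightest probe none was on 1 side of 0 on both arrays. Pdlim3 was at 0.02 and -0.02, Pdlim7 at -0.05 and 0.04, and Pdlim5 at 0.29 and -0.08. The dimmer Pdlim7 probes were at 0.08 and -0.17 and at -0.13 and -0.22, the latter lower on both arrays.

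A gene was represented by its brightest probe, and 16 members had more than 1 kept probe. In 13 of these all probes had means on 1 side of 0. Of the 60 kept probes of members, 34 were lower and 8 higher on both arrays. With the second brightest probe, 8 of the 16 members were lower and 1 was higher on both arrays. No share over all kept probes was computed beside these probe counts, so they are a description only.

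**Figure D4:**
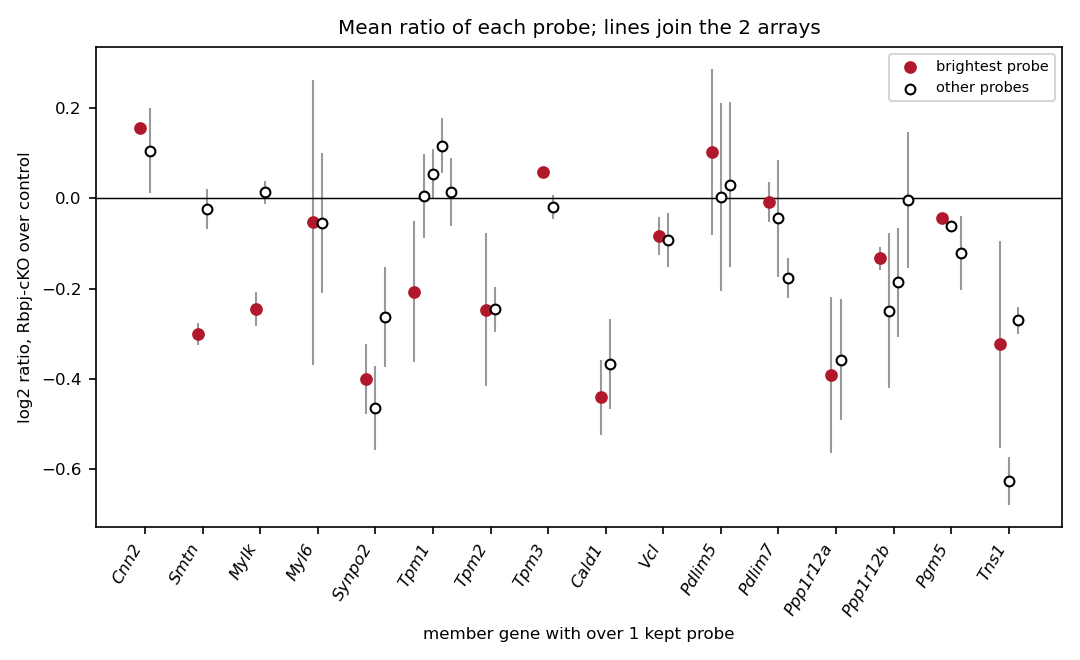
Mean log2 ratio of every kept probe for the 16 members with more than 1, the brightest filled and the others open, with lines joining the 2 arrays. The probes of Cald1, Synpo2, Ppp1r12a and Tns1 all lie below 0, while the other probes of Smtn, Mylk and Tpm1 lie near or above it.

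The members with opposite signs on the 2 arrays were mostly the brightest. Of 211 genes above the 99th percentile of brightness, 97.6% gave more red than green signal averaged over the arrays, with a median log2 red over green of 0.19, and 82.5% were positive on array 1 and negative on array 2. In the bin from the 90th to the 99th percentile the median was -0.03. Above the 99th percentile lay 7 members (Acta2, Tagln, Myl6, Myl9, Flna, Cnn1 and Tpm2), of which 5 were positive on array 1 and negative on array 2 (Acta2, Tagln, Myl6, Myl9 and Flna). A dye term of equal size on both arrays would enter them with opposite sign, cancel in their mean and add to their SD. Whether it had equal size was not tested. With a narrower loess span of 0.1, chosen after seeing these data, Acta2 was at 0.005 and -0.22 and Tagln at 0.06 and -0.23, and Myl9 and Flna were lower on both arrays. With that span 23 members were lower and 4 higher on both, against 30.6% and 32.6% of all genes. Without the genes above that percentile, 19 of 27 members were lower and 5 higher on both arrays, against 29.9% and 32.0% of the genes left. The part of the dye in these signs was not tested, since labelled sex, dye and replicate changed together.

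**Figure D5:**
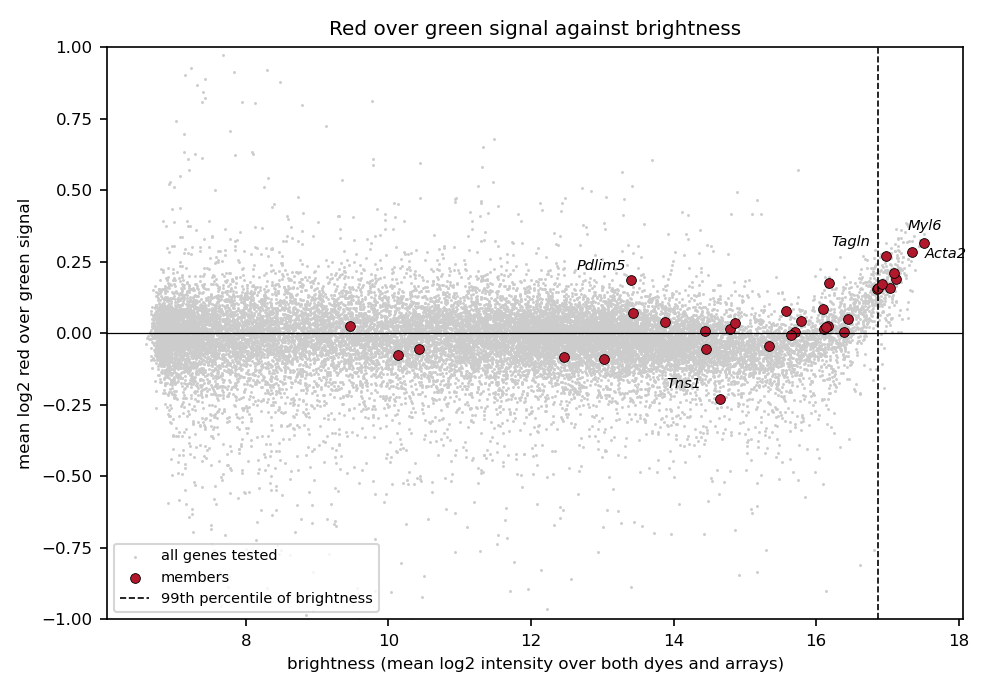
Mean log2 red over green signal (vertical, limited to -1 to 1) against brightness (horizontal), with all genes in grey, members in red and the 99th percentile of brightness as a dashed line. The points turn upwards beyond that line, where the median is 0.19, and Acta2, Tagln and Myl6 lie there.

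The counts were also taken with each array alone. On array 2 alone 28 members were lower and 6 higher, against 45.9% and 54.1% of all genes, with a median of -0.22. On array 1 alone 22 were lower and 12 higher, against 52.1% and 47.9% of all genes, with a median of -0.07. When arrays were only centred on their median in place of loess, the members' medians moved to 0.28 on array 1 and -0.49 on array 2, leaving 10 lower and 0 higher on both, against 31.9% and 24.2% of all genes, with a median of the mean of -0.14.

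Genes that work with the apparatus were read from lists chosen with earlier results of these data known. Among 14 genes of muscle anchors and intermediate filaments, 9 were lower and 1 was higher on both arrays, against 29.8% and 31.7% of all genes. Their medians were -0.31 and -0.21, and none passed the adjusted threshold. The lowest were Synm (-1.27 and -0.98, adjusted p = 0.0895, limma), Itga7 (-0.81 and -0.80, adjusted p = 0.0895) and Des (-0.82 and -0.65, adjusted p = 0.116). Synm and Des encode the intermediate filament proteins synemin and desmin, and Itga7 an integrin subunit that binds laminin. Each had a lower mean ratio than any of the 34 contractile members.

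The 8 regulators of the smooth muscle program, among them Myocd and Srf, had medians of 0.01 and 0.02, with 1 lower and 3 higher on both arrays. The 3 with the largest mean among those of 1 sign on both arrays were Tshz3 (0.10), Mrtfb (0.09) and Tbx18 (0.08). Of 20 genes of contraction signalling, 5 were lower and 4 higher on both arrays, led by Prkca (-0.25), a protein kinase C, Camk2d (0.18), a calmodulin-dependent kinase, and Calm3 (-0.15), a calmodulin. Of 14 counterparts used outside muscle, 1 was lower and 6 were higher on both arrays, with medians of 0.04 and 0.12. Pdlim1 was at -0.21, and the myosin genes Myl12a and Myh10 were both at 0.18. None of the genes of these 3 lists passed the adjusted threshold. Of all genes tested, 29.8% were lower and 31.7% higher on both arrays.

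Markers of other cell types also differed between the RNAs. Of 14 skeletal muscle genes, 12 were tested, Myh3 and Myh4 being not well above background. Of these, 6 were lower and 3 higher on both arrays, against 29.8% and 31.7% of all genes. The largest ratios with 1 sign on both arrays were those of Myh8 (-1.38), Tnnc2 (-0.86) and Ckm (-0.80). The mean ratios of the 12 genes had a median of -0.11 and ran up to 0.24. The summed intensity of these 12 genes was 57269 and 61762 in the Rbpj-cKO and 70386 and 72311 in the control RNAs. Fhl1, Des, Synm and Itga7 are also known from striated muscle.

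Of 8 pericyte markers, 6 were lower and 1 was higher on both arrays, led by Kcnj8 (-0.70), Pdgfrb (-0.64) and Ndufa4l2 (-0.58), and their summed intensity was 86963 to 93096 in the Rbpj-cKO and 108866 to 113407 in the control RNAs. Of 12 tested adipocyte markers of 13 listed, 11 were lower on both arrays, with medians of -2.74 and -1.09 and summed intensities of 145845 to 157388 against 312786 to 853372. Their lowest were Cfd (-3.47), Cox8b (-2.98) and Ucp1 (-2.74), and Ucp1 was the gene past the adjusted threshold (adjusted p = 0.0248, limma). Of 9 endothelial markers 7 were lower on both arrays, while 7 of 10 urothelial, 6 of 9 fibroblast, 4 of 6 mesothelial and 6 of 7 tested kidney markers were higher. Of all genes tested, 29.8% were lower and 31.7% higher on both arrays. The 5 leukocyte markers and the 8 hepatocyte markers all had opposite signs on the 2 arrays, against 8139 of the 21143 genes tested. The part of these markers in the ratios of the contractile genes was not tested.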

How the data were processed

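The deposited scanner files hold fluorescence intensity values per spot from Agilent Feature Extraction 10.7.3.1, per the submitters' processing notes. Per the file headers, their log ratios are log10 quotients of the red and the green signal. The authors' deposited series table was read as a signed fold score, from its values alone (how it was made: not given in the sources used here). It and the log10 ratio served only as alternatives. Well-above-background and outlier flags were taken as deposited.

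Mean signals were background corrected with normexp (offset 50) on local background medians, normalized by loess within arrays with control spots at weight 0, and averaged over the spots of a probe without those flagged as outliers. Levels of single RNAs came from Aquantile scaling between arrays. Probes with over 50% of spots well above background on both arrays in at least 1 genotype were kept (28175), and a gene was represented by its brightest probe. Names are those of the array files, updated through accessions to RefSeq names (28328 probes matched, 1359 names changed). Coordinates of probes are on mm9, as the files give them. Log2 ratios of Rbpj-cKO over control were tested against 0 with limma 3.58.1 in R 4.3.3 (two-sided, Benjamini-Hochberg over 21143 genes, 4.35 total degrees of freedom), on a script first tested on simulated data. SDs are between the 2 arrays. The alternatives changed the background correction, normalization, filter, choice of probe, flags, moderation of the variances and model, used each deposited ratio, or left out an array. The members and lists were chosen with earlier results of these data known. All 34 members are named, and from each other list those past the threshold or, failing that, up to 3 with the largest mean and 1 sign on both arrays. Both arrays lay on 1 slide scanned on 1 day, so no batch was fitted.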

Additional observations from a re-analysis of the deposited data

Results flagged for a closer look

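In 6 of the 34 members the pair on array 1 had a higher Rbpj-cKO level and the pair on array 2 a lower one, on each array by more than the SD of the probe's spots. No share of all genes was computed for this rule. Opposite signs in either order were seen in 8 of the 34 members and in 8139 of the 21143 genes tested. The log2 ratio of array 1 minus that of array 2 was 0.57 for Acta2, 0.54 for Tagln, 0.38 for Myl9, 0.63 for Myl6, 0.42 for Flna and 0.37 for Pdlim5. Each sex label is held by 1 pair, so the difference was not tested, and labelled sex, dye and replicate cannot be told apart. On array 1 the RNAs also differed in Y-linked transcripts. All but Pdlim5 lay above the 99th percentile of brightness, where 82.5% of all genes had these signs.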

How the results depend on the processing

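The 2 arrays limit every value, and 0 members passed the adjusted threshold under any of the settings that allow a test, although limma with a trend and robust moderation called 95 genes in all. Median centring left 10 members lower and 0 higher on both arrays, against 31.9% and 24.2% of all genes. Without replicate 1 and without replicate 2, the counts ran from 22 to 28 lower and from 6 to 12 higher, against 45.9% to 52.1% and 47.9% to 54.1% of all genes, and the median from -0.220 to -0.073. With the second brightest probe, chosen after seeing the data, 8 of 16 were lower and 1 was higher on both arrays, with no all-gene share computed. The mean ratio changed sign there for Mylk (0.014), Tpm1 (0.0052) and Tpm3 (-0.020). Pdlim7 turned above 0 with the scanner's log ratio (0.029), the deposited series table (0.041) and the loess span of 0.1 (0.0028), and Pdlim3 turned to -0.028 with median centring. The cause was not tested. Of the planned values for single members, 473 were labelled the same and 3 reversed. With an array left out, that label asked only for a distance under the SD between arrays. With 2 arrays this is always met, also where the sign turned, as for Acta2 (0.20 without replicate 2, against -0.08). Of the planned counts and medians, 50 were labelled the same and 4 moved. Counts were compared by a 1.5-fold rule, and the median by its sign and a distance. Adjusted p over 13 settings ran from 0.0743 to 0.579 for Fhl1 and from 0.107 to 0.579 for Cald1.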
